A study of Mus musculus with 4 samples.

Results

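Intestinal mesenchymal stromal cells (MSC) were examined here for 9 genes of the complement system. These were *C1ra*, *C1s1* and *C4b* of the classical pathway, *C3* and *Cfb* of the alternative pathway, *C6* and *C7* of the terminal pathway, and the regulators *Serping1* and *Cd55*. The 9 genes were taken by symbol from the 28692 gene rows that the libraries share, and all 9 had a row. They were chosen on their counts by intestine and MSC class with earlier results of these data in view, *C7* and *C4b* for their difference between the intestines. Their levels are therefore given as a description, with no test, and only complement genes outside the 9 are tested.

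Cells came from the lamina propria of untreated female C57BL6/Nrj mice aged 8 to 10 weeks, with the muscularis externa stripped off. MSC were sorted as live cells negative for CD45, Ter119, CD31, BP3, EpCAM and L1CAM and positive for Itgb1, so that leukocytes, erythroid, endothelial, epithelial and glial cells were gated out. Single-cell RNA-seq was done in 2 independent experiments per intestine with 3 mice pooled in each, which gave 2 libraries (replicates 1 and 2) of small intestine and 2 of colon. Pooling means that the animals within a library cannot be separated.

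Complement is a cascade of plasma proteins that marks surfaces for removal and can open pores in membranes. In the classical pathway the proteases C1r and C1s, carried by C1q, cleave C4 and C2. The fragments form an enzyme that cleaves C3, the protein on which all pathways meet, and factor B amplifies this step. Downstream, C5 to C9 assemble into the membrane attack complex. The C1 inhibitor encoded by *Serping1* blocks C1r and C1s, and CD55 (decay accelerating factor) on the cell surface takes apart the enzymes that cleave C3. The liver makes most circulating complement, and fibroblasts (FB) are a known local source.

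Several of the 9 genes share a chromosome (GRCm38, which mm10 names, with GENCODE vM21 gene models). *C6* (chr15:4727175-4814967, + strand) and *C7* (chr15:4988762-5063740, - strand) are transcribed toward each other, 173794 bases apart on chromosome 15. *C1ra* (chr6:124512405-124523443, + strand) and *C1s1* (chr6:124530345-124542359, - strand) are 6901 bases apart on chromosome 6. *C4b* (chr17:34728380-34743882, - strand), *Cfb* (chr17:34856374-34862518, - strand) and *C3* (chr17:57203970-57228136, - strand) are on chromosome 17. *Serping1* lies at chr2:84765387-84775444, - strand and *Cd55* at chr1:130439027-130462744, - strand. Promoter windows for 6 of the 9 genes were matched by symbol in RefSeq (GRCm38.p6). The 250 bases before the annotated start are shown for *C7*, which was almost silent in colon, and for *Cd55*, which was higher in colonic CD81+ FB. Each is written 5′ to 3′ on the gene's own strand, and capitals mark a match to a searched motif.
*C7*, chr15:5063774-5064023, - strand: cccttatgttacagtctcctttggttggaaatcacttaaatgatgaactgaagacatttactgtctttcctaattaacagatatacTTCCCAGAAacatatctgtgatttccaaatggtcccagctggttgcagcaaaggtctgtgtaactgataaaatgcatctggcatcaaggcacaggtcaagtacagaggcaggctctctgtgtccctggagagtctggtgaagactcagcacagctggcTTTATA
*Cd55*, chr1:130462745-130462994, - strand: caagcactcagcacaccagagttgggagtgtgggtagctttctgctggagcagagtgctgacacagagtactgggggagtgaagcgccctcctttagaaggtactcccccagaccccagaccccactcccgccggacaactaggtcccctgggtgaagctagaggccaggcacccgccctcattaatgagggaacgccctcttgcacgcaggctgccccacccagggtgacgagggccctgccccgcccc

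The motifs were searched on both strands of 300 bases, 250 before to 50 after the start, in 32851 promoters. The STAT motif TTCNNNGAA was present in 8.30% of all promoters, the interferon-stimulated response element in 3.44%, the NF-kB motif in 0.411% and TATAAA in 13.6%. *C7* held the STAT letters as TTCCCAGAA, starting 164 bases before its start, and TATAAA on the opposite strand. *C1ra* held TTCCCTGAA from base 33 after its start, and *C3* held TATAAA from base 15 after its start. None of the 4 motifs stood in the windows of *C6*, *C1s1* and *Cd55*. No other match was found in the windows of the 6 genes, and these are matches of letters only.

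Counts are unique molecular identifiers (UMIs), each standing for 1 captured RNA molecule. Libraries held 14341443 to 52269372 UMIs. Replicate 1 libraries were small and deep (1823 and 2399 cells kept, medians of 6968 and 8810 UMIs per cell for small intestine and colon), and replicate 2 libraries were large and shallow (14467 and 12230 cells, medians of 2740 and 3887 UMIs). The replicate numbers also differed in the Cell Ranger version, and the kit of each library (3′ or 5′) is not stated, so these cannot be told apart. Libraries shared few barcodes, 69 between the replicate 2 libraries, 8 between the replicate 1 libraries and at most 2 in any other pair. Over the 6 MSC classes described next, the collagen binding gene *Dcn* stood at 6687 to 16943 CPM (CPM, UMIs in every 1000000 UMIs of the group) and *Itgb1* at 545 to 722 CPM. Of the genes for the proteins gated out, *Ptprc* stood at 0.0888 to 0.396 CPM, *Pecam1* at 0.273 to 2.61 CPM, *Epcam* at 0.0968 to 0.763 CPM, *L1cam* at 0 to 0.436 CPM and *Bst1* (BP3) at 0 to 0.0990 CPM.

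Cells were clustered per intestine without the complement genes, and 29019 of 29262 MSC fell into 6 classes. PDGFRαhi FB had *Pdgfra* at 663 to 2137 CPM, against 183 to 244 CPM in CD81+ FB. The remaining FB were split by *Fgfr2* into Fgfr2-high FB (115 to 387 CPM) and Fgfr2-low FB (58.5 to 129 CPM). This split was made within each intestine and does not give like classes. The small intestinal Fgfr2-high clusters had *Fgfr2* at 308 and 679 CPM over both libraries and the colonic ones at 124 and 159.8 CPM, near the 95.5 to 121 CPM of small intestinal Fgfr2-low clusters. The study separates Igfbp5+ FB and CD90+ FB, which Fgfr2-low FB do not, so differences between the intestines in both Fgfr2 classes are also differences between unlike clusters. Smooth muscle cells (SMC) had *Myh11* at 1818 to 3409 CPM, and pericytes made up the rest. For each class and library, UMIs were summed and expressed as CPM. Fold changes were fitted to these sums with edgeR in the 5 classes other than pericytes, which had as few as 29 cells in a library. Such sums cannot tell fewer expressing cells from less RNA per cell, so the share of cells with a UMI is also given, after each cell was reduced at random to 1000 UMIs.

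**Figure D1:**
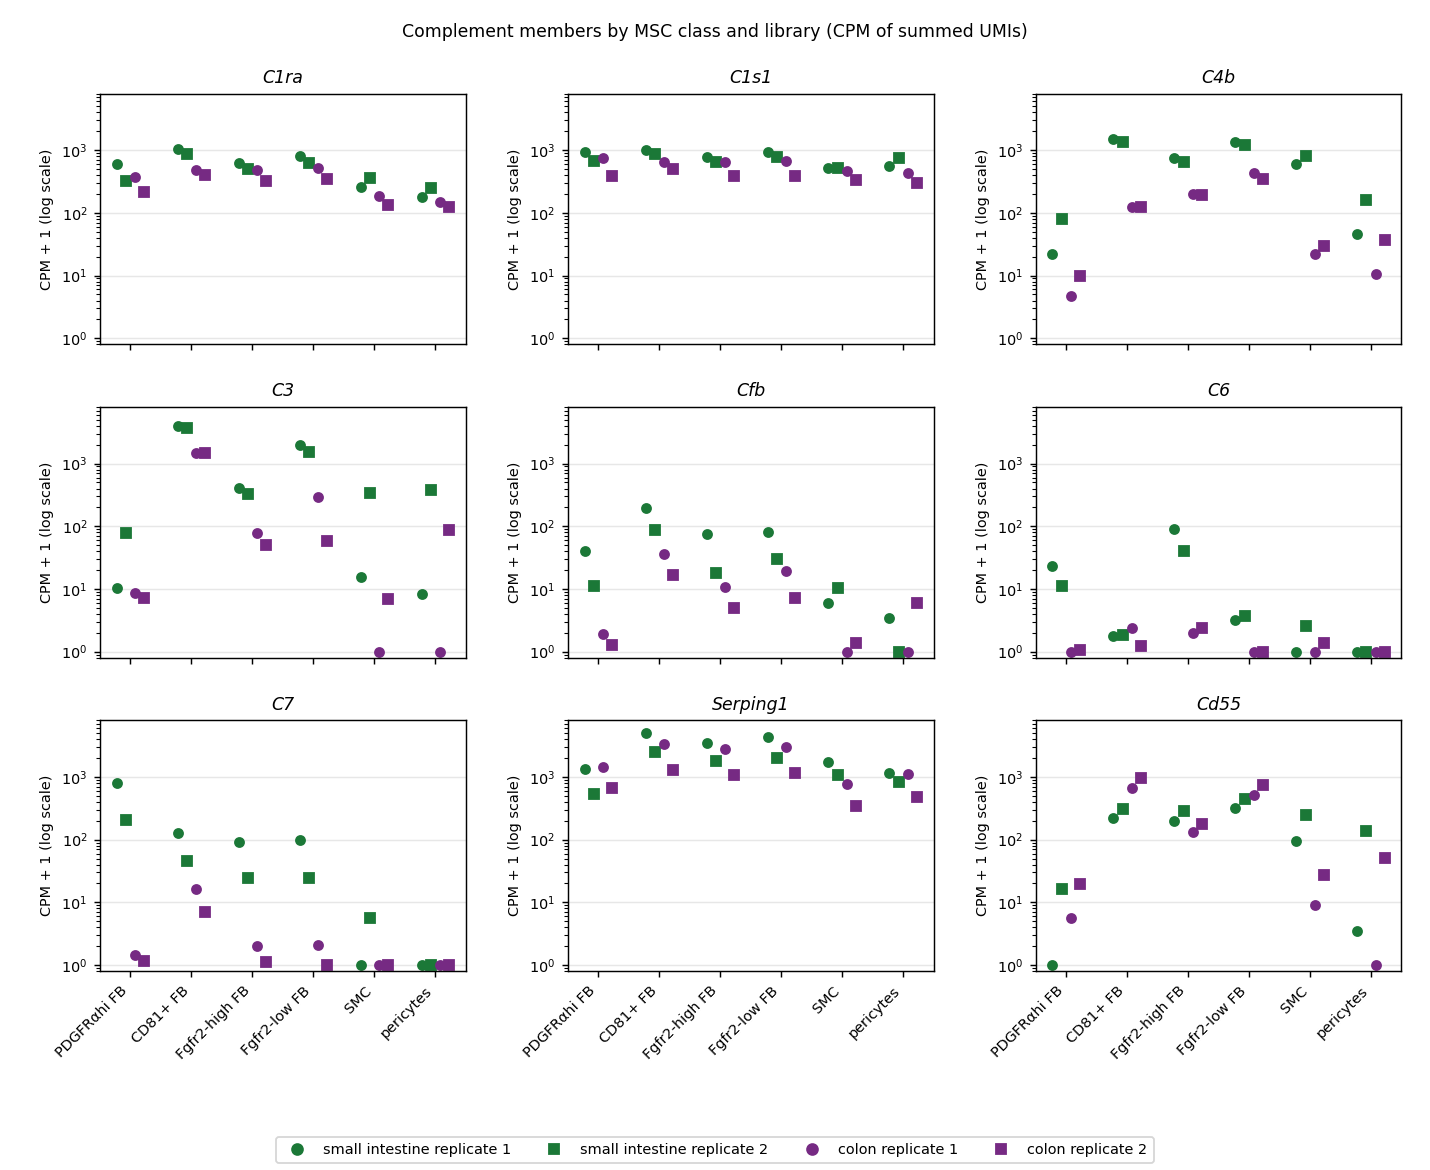
Level of each of the 9 genes (CPM + 1, log scale) in 6 MSC classes, 1 point per library. *C7* and *C6* were close to 0 in colon outside CD81+ FB and Fgfr2-high FB, *C4b* separated the intestines in every class, and *C1ra*, *C1s1* and *Serping1* were present in every class of both intestines.

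Most of the 9 genes were lower in colon. Of 45 combinations of gene and class, 33 were lower in both colonic libraries than in both small intestinal ones, 2 were higher, and 10 overlapped. Within replicate numbers, 38 were lower in colon in both pairs and 4 were higher in both. By class, 5 genes were lower without overlap in PDGFRαhi FB, 6 in CD81+ FB, 8 in Fgfr2-high FB, 7 in Fgfr2-low FB and 7 in SMC. Over all genes tested, the share lower in both colonic libraries was 26%, 14.2%, 30.9%, 16.7% and 21.4% in these classes, and the share higher in both was 14.9%, 26.3%, 12.6%, 26.9% and 20.4%. The genes were chosen on this contrast, so nothing is read from these counts.

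The median fitted log2 fold change (colon minus small intestine) of the genes with enough UMIs was -2.56 in PDGFRαhi FB, -1.39 in CD81+ FB, -1.62 in Fgfr2-high FB, -1.84 in Fgfr2-low FB and -2.31 in SMC. Over all genes tested the median lay between -0.01 and 0.02 in the 5 classes. These values describe the contrast on which the genes were chosen, so no call is made for the 9 genes. With 2 libraries per intestine, an exact two-sided permutation test of a single gene could not fall below p = 0.333.

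**Figure D2:**
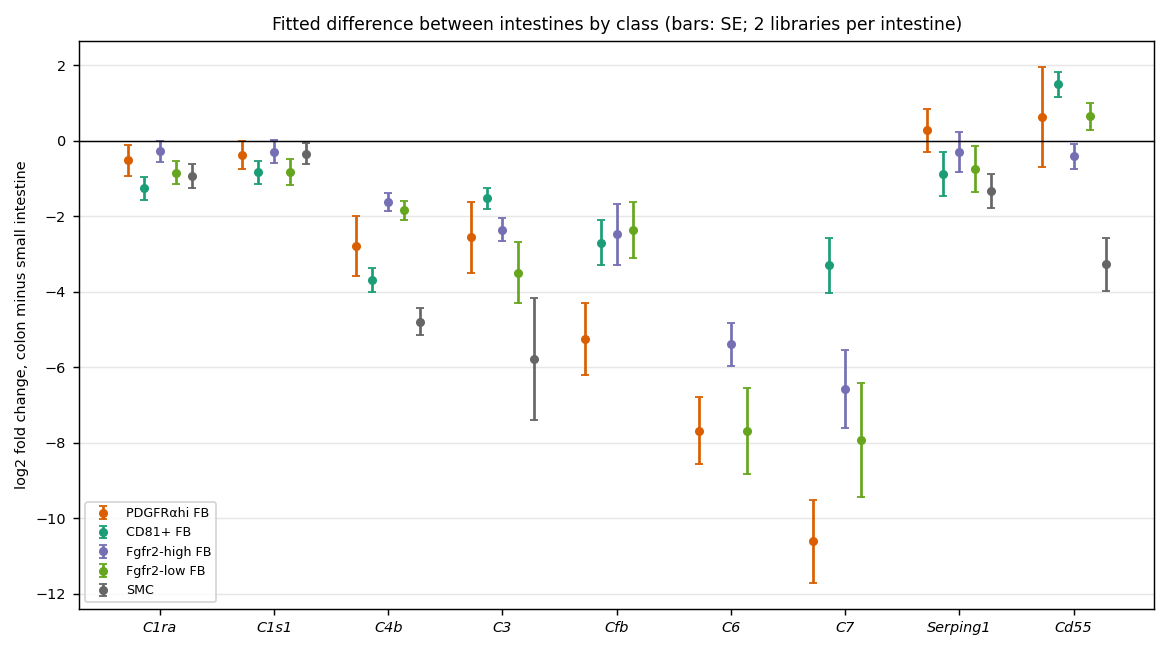
Fitted log2 fold change, colon minus small intestine, of each of the 9 genes in the classes where it had enough UMIs, with its SE (2 libraries per intestine). The values below -5 belonged to *C7*, *C6*, *Cfb* in PDGFRαhi FB and *C3* in SMC, and only *Cd55* and *Serping1* had values above 0.

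*C1ra* and *C1s1*, the protease pair that starts the classical pathway, were present in every class. In CD81+ FB, *C1ra* stood at 1028 and 864 CPM in the small intestinal libraries (replicates 1 and 2) and at 475 and 397 CPM in the colonic ones (log2 fold change -1.25, SE 0.30). In PDGFRαhi FB it stood at 602 and 326 CPM and 375 and 218 CPM, so that the groups overlapped. Fgfr2-low FB had 809 and 622 CPM against 512 and 351 CPM, without overlap. In each of these classes replicate 1 was above replicate 2 of the same intestine. By fitted log2 fold change, *C1s1* differed less than *C1ra* in CD81+ FB, PDGFRαhi FB and SMC. The values of *C1s1* and *C1ra* were close in Fgfr2-low FB (-0.82 and -0.86) and Fgfr2-high FB (-0.29 and -0.28). In pericytes, which were not fitted, the ratio of small intestine to colon was larger for *C1s1* (1.80 against 1.58). *C1s1* stood at 1010.3 and 871 CPM in small intestinal and 646 and 509 CPM in colonic CD81+ FB. In PDGFRαhi FB it stood at 930.2 and 660.4 CPM and 738 and 392 CPM. Its fitted values ran from -0.84, SE 0.31 in CD81+ FB to -0.29, SE 0.30 in Fgfr2-high FB.

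SMC and pericytes carried the same pair. *C1s1* stood at 516 and 519 CPM in small intestinal SMC and 472 and 337 CPM in colonic SMC, and at 569 and 745 CPM and 433 and 297 CPM in pericytes. *C1ra* stood at 259 and 354 CPM and 188 and 131 CPM in SMC. Endothelial cells that had passed the sort, a class outside the MSC, served as the measure of free RNA. There *C1s1* was found in 1.55% of 386 cells of small intestine replicate 1 and 0.417% of 240 cells of colon replicate 1, against 32.4% and 34.0% of SMC. Median depths before thinning were 4401 and 5069.5 UMIs in endothelial cells and 5847 and 7967 UMIs in SMC. The replicate 2 libraries held only 11 and 24 endothelial cells.

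*C4b*, whose product is cleaved by C1s, was lower in colon in every class. In CD81+ FB it stood at 1487 and 1373 CPM in small intestine and 123 and 121 CPM in colon (1430.3 ± 80.7 CPM and 122 ± 0.936 CPM, SD, n = 2), a ratio of 11.7 and a log2 fold change of -3.68, SE 0.31. The ratios within replicate numbers 1 and 2 were 12.1 and 11.3. Both small intestinal libraries were thus far above both colonic ones, and the replicates of an intestine lay close together. Fgfr2-low FB had 1345 and 1229 CPM against 427 and 351 CPM (log2 fold change -1.84, SE 0.26), and Fgfr2-high FB had 739.8 and 655 CPM against 202 and 190.4 CPM (-1.62, SE 0.24). In the colon the order of classes changed, with CD81+ FB below both Fgfr2 classes. PDGFRαhi FB were lowest of the FB in both intestines, at 21.3 and 78.2 CPM and 3.77 and 8.93 CPM.

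The largest fitted *C4b* difference was in SMC, at 607 and 808 CPM in small intestine and 21.3 and 29.0 CPM in colon (fitted log2 fold change -4.80, SE 0.36, ratios within replicate numbers 28.5 and 27.9). Endothelial cells of the same library had *C4b* at 28.7 CPM, and those of small intestine replicate 2 at 431 CPM, from 11 UMIs in 11 cells. Colonic SMC came from clusters numbered 5 and 10, which had 12.1 and 12.8 CPM and 123 and 123 CPM in replicates 1 and 2, and small intestinal SMC from 1 cluster. Each colonic cluster was below the small intestinal one. The FB gene *Dcn* moved with this difference, at 7559.8 CPM in the small intestinal SMC cluster and 1352 and 4036 CPM in the colonic clusters 5 and 10, as did *Pdgfra* at 92.3, 8.01 and 46.6 CPM. The part of FB RNA in the SMC values of *C4b* and of the other genes was not tested.

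The share of cells with a *C4b* UMI followed the levels. In CD81+ FB it was 70.7% (65.2 to 75.8) and 64.8% (62.9 to 66.6) in small intestine and 7.89% (4.49 to 12.7) and 9.89% (8.74 to 11.1) in colon, with exact binomial 95% intervals that cover counting error only. In SMC it was 42.3% and 49.3% against 1.62% and 2.70%. Endothelial cells of the replicate 1 libraries had 0.777% and 0% (0 of 240 cells, which at 3 counts of the total allows a share of up to 1.25%, exact upper limit 1.53%), and of the 11 in small intestine replicate 2, 36.4% had a UMI. Without thinning the CD81+ FB shares were 95.6%, 86.1%, 27.9% and 20.7%. *C4b* has a near-identical copy, *C4a*, which has no gene row in the libraries and so is not analysed here. Of the 5379 bases of the longest coding *C4b* transcript, 64.9% lay in stretches of at least 50 bases found unchanged in *C4a* transcripts. How many *C4b* UMIs came from *C4a* reads cannot be told from the counts.

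**Figure D3:**
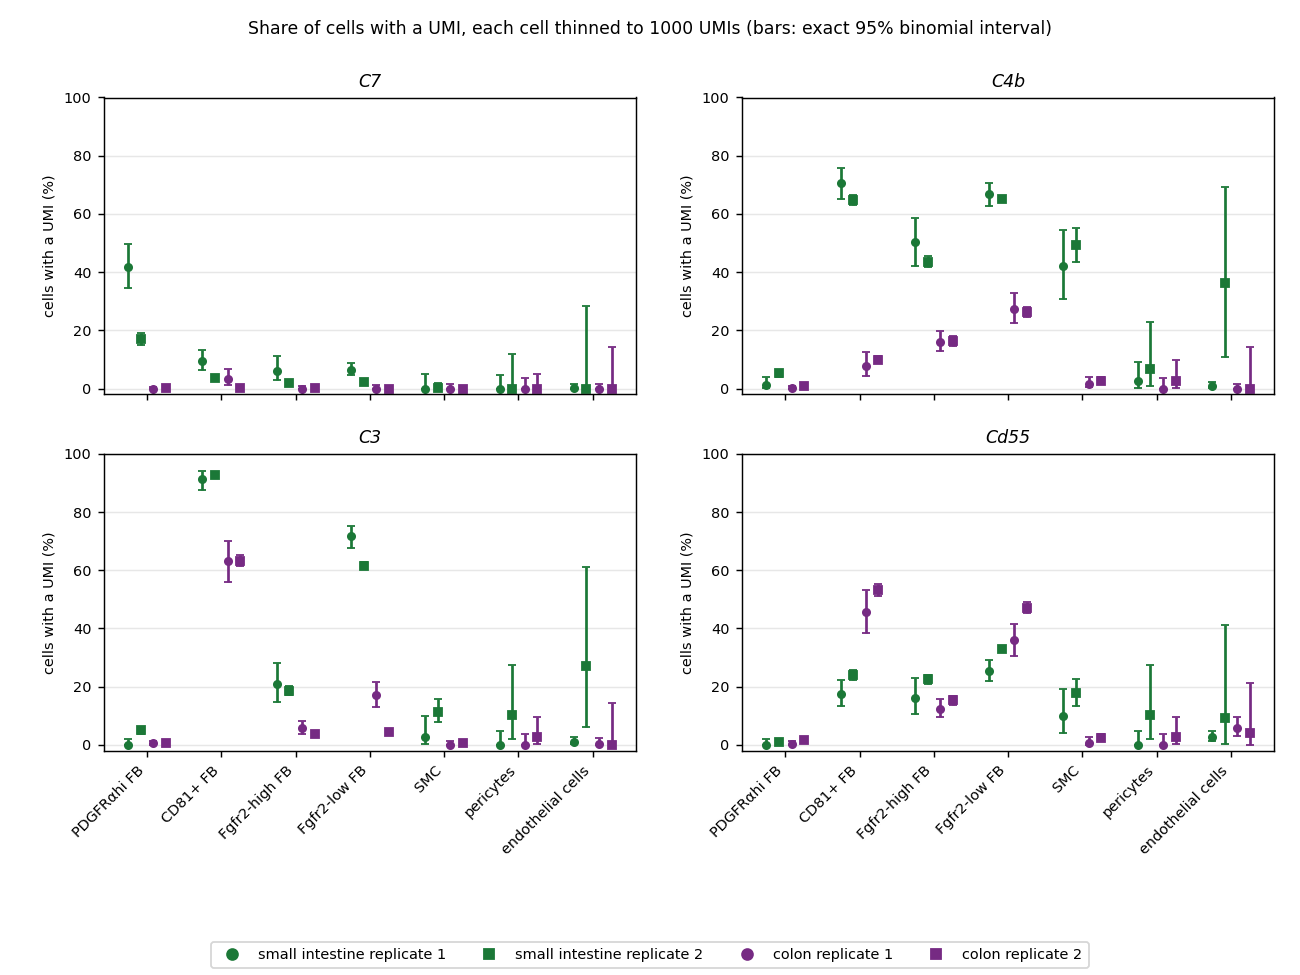
Share of cells with a UMI of *C7*, *C4b*, *C3* and *Cd55* by class and library, each cell thinned to 1000 UMIs, with exact 95% binomial intervals and endothelial cells at the right. *C4b* and *C3* were found in most small intestinal CD81+ FB, *C7* mainly in small intestinal PDGFRαhi FB, and *Cd55* in more CD81+ FB of the colon than of the small intestine.

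*C3*, the protein on which the pathways converge, had its highest level in CD81+ FB of both intestines. There it stood at 3959.8 and 3764 CPM in small intestine and 1459.5 and 1470.1 CPM in colon (ratio 2.64, log2 fold change -1.53, SE 0.29), again with close replicates. In Fgfr2-low FB the libraries of the colon lay further apart, at 291 and 57.3 CPM, and both were below the 1958 and 1532 CPM of small intestine (log2 fold change -3.49, SE 0.81). Fgfr2-high FB had 411 and 332 CPM against 77.7 and 48.5 CPM (-2.36, SE 0.30). Of CD81+ FB, 91.2% and 92.7% had a *C3* UMI in small intestine and 63.2% and 63.3% in colon. In endothelial cells of the replicate 1 libraries the share was 1.04% and 0.417%.

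In PDGFRαhi FB and SMC, *C3* depended on the library. Small intestine replicate 1 had 9.32 CPM in PDGFRαhi FB and 14.7 CPM in SMC, and replicate 2 had 76.6 and 335 CPM. Endothelial cells of these libraries had 7.18 CPM and 587 CPM, the second from 15 UMIs, so the level in small intestine replicate 2 was not above that of a cell type outside the MSC. In PDGFRαhi FB the intestines did not overlap (7.70 and 6.11 CPM in colon), and the log2 fold change was -2.56, SE 0.94.

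*Cfb*, which encodes factor B of the alternative pathway, was sparse. It was highest in CD81+ FB, at 196 and 86.4 CPM in small intestine and 35.1 and 15.5 CPM in colon (fitted log2 fold change -2.70, SE 0.59). Replicate 1 was above replicate 2 in both intestines, and the ratios within replicate numbers were 5.59 and 5.57. In PDGFRαhi FB, *Cfb* gave 59 and 31 UMIs in small intestine and 6 and 4 in colon, a pooled ratio of 38.8 (exact 95% interval 20.1 to 83.6). Among Fgfr2-low FB it stood at 81.5 and 29.1 CPM against 18.7 and 6.17 CPM, without overlap. At most 16.5% of cells in any class and library had a *Cfb* UMI after thinning.

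*C7*, which joins the membrane attack complex and anchors it to the membrane, was a small intestinal transcript of PDGFRαhi FB. There it gave 1186 and 628 UMIs (789.7 and 203 CPM) in small intestine and 3 and 2 UMIs (0.471 and 0.149 CPM) in colon, although the colonic class held 590 and 3357 cells. Counting over each intestine, the ratio was 1562 (exact 95% interval 668 to 4817), and the fitted log2 fold change was -10.61, SE 1.10. Both small intestinal libraries were high, replicate 1 well above replicate 2 on the CPM scale, and both colonic ones were near 0. The other FB classes held *C7* at a lower level in small intestine, at 126 and 44.8 CPM in CD81+ FB, 90.6 and 23.8 CPM in Fgfr2-high FB and 97.2 and 23.1 CPM in Fgfr2-low FB. In colon the same classes had 15.5 and 5.93, 1.00 and 0.117 and 1.08 and 0 CPM.

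CD81+ FB held most of the *C7* that was left in the colonic classes. Of the *C7* UMIs of the 6 classes in a library, CD81+ FB gave 67.6% and 94.8% in the colonic libraries and 15.8% and 22.5% in the small intestinal ones, whereas PDGFRαhi FB gave 58.4% and 37.8% in small intestine. Outside the classes, the unnamed colonic cluster 8 held 7 *C7* UMIs in 217 cells of replicate 2 (7.38 CPM). SMC and pericytes had no *C7* UMI in small intestine replicate 1. In PDGFRαhi FB, 41.9% (34.4 to 49.6) and 17.1% (15.1 to 19.2) of small intestinal cells had a UMI after thinning, against 0% and 0.0596% in colon, where 0 of 590 cells at 3 counts of the total allows a share of up to 0.508% (exact upper limit 0.623%). Endothelial cells of small intestine replicate 1 had 0.259%. Depth, Cell Ranger version and possibly kit moved with the replicate number, and their part in the gap between the small intestinal replicates was not tested.

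*C6*, the partner that binds just before C7 and lies on the same chromosome, was found in a different class. Its highest level was in small intestinal Fgfr2-high FB, with 89 and 265 UMIs (88.6 and 39.2 CPM) against 5 and 12 (1.00 and 1.41 CPM) in colon and a log2 fold change of -5.40, SE 0.56. PDGFRαhi FB followed with 34 and 31 UMIs against 0 and 1, a pooled ratio of 279.9 (exact 95% interval 48.5 to 11224). Fgfr2-low FB had 10 and 59 UMIs in small intestine and 0 in both colonic libraries. The exact 95% lower limit of the pooled ratio was 9.68, and with 3 counts over the colonic group as the floor the ratio was 12.2. CD81+ FB, rich in other complement genes, had 2 and 7 UMIs in small intestine and 2 and 2 in colon, too few for a fold change. Few cells carried *C6*, at most 4.70% of a class and library after thinning. Fitted fold changes of *C6* and *C7* against nearly empty colonic counts depend on the prior count of the fit.

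*Serping1*, the inhibitor of C1r and C1s, was present at 346 CPM or more in every class and library. CD81+ FB had 5064 and 2543 CPM in small intestine and 3324 and 1289 CPM in colon (fitted log2 fold change -0.88, SE 0.57), so that the groups overlapped. PDGFRαhi FB had 1330.3 and 529 CPM and 1424 and 659 CPM (0.28, SE 0.57), where both colonic libraries were above the small intestinal library of the same number. The larger difference was between replicate numbers, since replicate 1 was above replicate 2 in every class of both intestines. Within numbers 1 and 2, the ratio of small intestine to colon was 0.934 and 0.803 in PDGFRαhi FB, 1.41 and 1.76 in Fgfr2-low FB and 1.52 and 1.97 in CD81+ FB. Of the 6 classes only SMC showed no overlap, at 1757 and 1084 CPM and 763 and 346 CPM.

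*Cd55*, the membrane regulator that limits C3 cleavage on the cell's own surface, was higher in colonic CD81+ FB, where *C1ra*, *C1s1*, *C4b*, *C3*, *Cfb* and *C7* were lower. It stood at 222 and 313 CPM in small intestine and 666 and 965 CPM in colon, 3.05-fold higher in colon (log2 fold change 1.49, SE 0.34), and the ratios of colon to small intestine within replicate numbers were 3.0 and 3.08. Fgfr2-low FB had 314 and 442 CPM and 512 and 752 CPM (0.65, SE 0.36), also without overlap. In Fgfr2-high FB the colon was lower, at 132 and 179 CPM against 200.1 and 281 CPM (-0.42, SE 0.32), and in SMC it was lower by more, at 8.10 and 26.6 CPM against 93.0 and 248 CPM (-3.28, SE 0.70). PDGFRαhi FB were nearly free of it, at 0 and 15.5 CPM and 4.56 and 18.6 CPM. The share of CD81+ FB with a *Cd55* UMI was 17.5% and 24% for the small intestine, against 45.8% and 53.3% for the colon, and endothelial cells of the replicate 1 libraries had 2.59% and 5.83%. *Cd55* was higher in replicate 2 than in replicate 1 in every class of both intestines, the reverse of *Serping1*.

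At a finer clustering (resolution 0.8), small intestinal CD81+ FB fell into 3 clusters that differed in *Cd55*. The cluster led by *Pi16* (824 cells) had 595 and 751 CPM in replicates 1 and 2, whereas those led by *Cd81* and *Piezo2* (1591 cells) and by *Chodl* (1002 cells) had 156 and 237 CPM and 147 and 236 CPM. The colonic CD81+ clusters had 657 and 853 CPM (led by *Has1*, 2018 cells) and 654 and 1145 CPM (led by *Pi16*, 852 cells). The colonic *Pi16* cluster also had *Apod*, *Ptn* and *Myoc* among its leading genes, which led the unnamed cluster 8 (225 cells) at resolution 0.5, so the colonic CD81+ clusters at resolution 0.8 are not the same cells as CD81+ FB above. The *Pi16* clusters of the intestines stood closer to each other in *Cd55* than the whole classes did. *C4b* did not follow this pattern. In the *Pi16* clusters it stood at 1315 and 1214 CPM in small intestine and 40.5 and 53.4 CPM in colon. *C3* in these clusters stood at 3436 and 2927 CPM and 1357 and 1021 CPM. Clusters were made from the same cells, so these values describe them and are no test.

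Single clusters within the other classes mostly repeated their class. The small intestinal Fgfr2-low clusters 0 and 1 had *C4b* at 1396 and 1293 CPM and 1337 and 1191 CPM, and cluster 6, of 339 cells led by the interferon-induced *Cxcl9*, had 1030.0 and 1086 CPM, the lowest of the 3. *Cfb* was highest in cluster 6, at 163 and 62.1 CPM against 78.0 and 28.9 CPM in cluster 0 and 75.0 and 26.3 CPM in cluster 1. *C3* and *C1ra* were highest there too, at 2493 and 1741 CPM and 1019 and 694 CPM. *C7* in the same clusters was 102 and 20.2, 92.3 and 25.5 and 103 and 23.3 CPM in replicates 1 and 2. Colonic PDGFRαhi FB came from clusters 1 and 4, with *C7* at 0.542 and 0 CPM and 0.374 and 0.289 CPM, so neither cluster held it. In colonic Fgfr2-high FB, *C6* stood at 3.94 and 2.74 CPM in cluster 7, led by *Cxcl9* and *Ccl8*, and at 0 and 0.836 CPM in cluster 3.

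**Figure D4:**
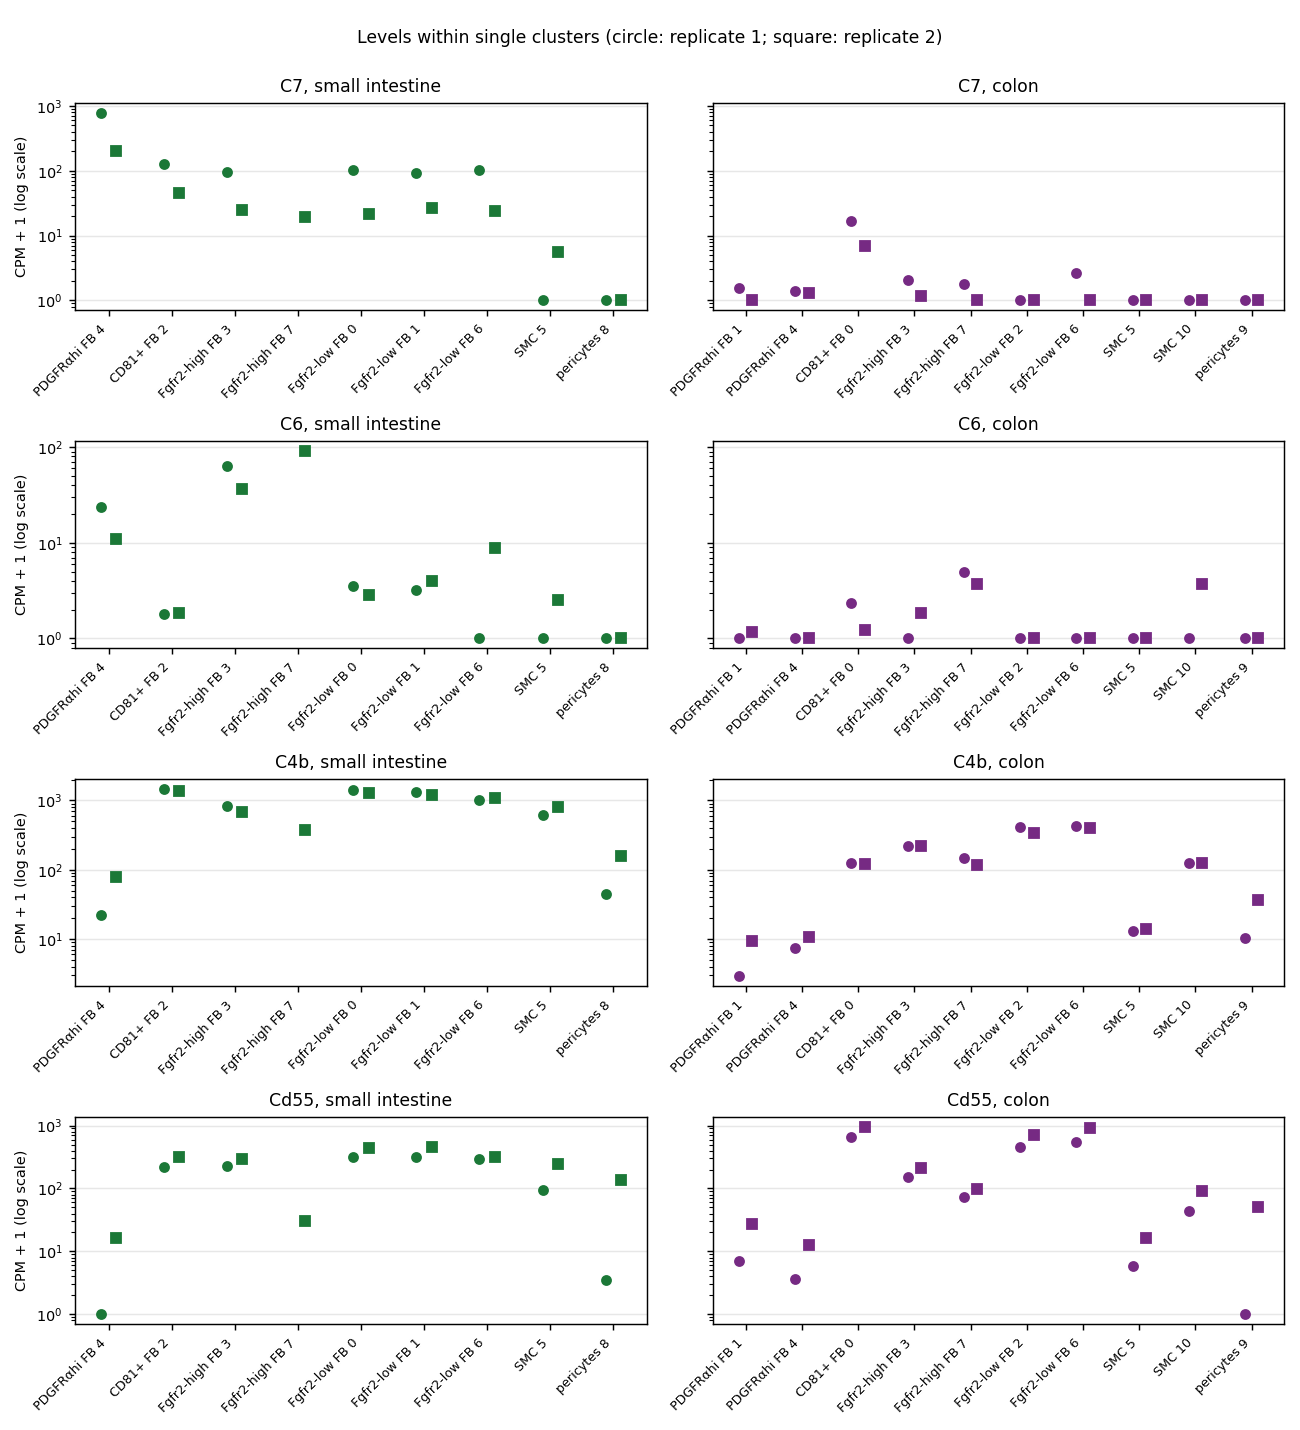
Levels of *C7*, *C6*, *C4b* and *Cd55* (CPM + 1, log scale) in single clusters of small intestine and colon that held at least 20 cells of a library, named by class and cluster number. *C7* was highest in small intestinal PDGFRαhi FB and *C6* in small intestinal Fgfr2-high FB, and *C4b* was lower in each colonic FB cluster than in the small intestinal clusters of its class.

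Lists of markers of other cell types were summed in each class. Immune cell markers summed to 2.75 to 24.5 CPM in small intestine and 1.41 to 11.8 CPM in colon over the 5 classes, with 2 to 7 of 7 and 4 to 6 of 7 of the list found. Endothelial markers summed to 0 to 17.9 CPM and 1.01 to 6.55 CPM. Markers of interstitial cells of Cajal summed to 237 and 221 CPM in small intestinal and 175 and 117 CPM in colonic PDGFRαhi FB, with 3 to 4 of 4 found, and to at most 55.3 CPM in the other 4 classes. Plasma cell transcripts were higher than immune ones in most classes and libraries, at 22.9 to 264 CPM in small intestine and 2.02 to 204 CPM in colon, and led several FB clusters. In colon replicate 1 they were lower than immune ones in PDGFRαhi FB (2.04 against 5.34 CPM) and CD81+ FB (2.02 against 2.70 CPM). The clusters removed as plasma cells had *Serping1* at 3137 and 1349.9 CPM in colon, a level of FB, so they were not used as a measure of free RNA. A list of 20 interferon response genes moved with the intestine. Its summed level was 2366 and 1663 CPM in small intestine and 1186 and 1176 CPM in colon in CD81+ FB, 2389.6 and 1999 CPM in small intestine and 1244 and 1313 CPM in colon in PDGFRαhi FB, 2658 and 2321 CPM in small intestine and 678 and 1034 CPM in colon in Fgfr2-low FB and 1872 and 1792 CPM in small intestine and 555 and 480.1 CPM in colon in SMC, lower in both colonic libraries in each. In Fgfr2-high FB it overlapped, at 2332 and 2091 CPM in small intestine and 1444 and 2376 CPM in colon. The part of interferon response and of RNA of plasma and interstitial cells in the values above was not tested.

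The complement list held 58 genes, the 9 included. Of the others, 48 had a row, and 6 to 17 of their rows had enough UMIs to enter the test in a class. The cut-offs were those the study set for DESeq2 on bulk RNA-seq of sorted cells (adjusted p below 0.05, absolute log2 fold change above 1.5). Here they were applied to edgeR fits of summed UMIs. Over all genes, 0.703%, 0.544%, 0.529%, 1.15% and 1.24% were called lower in colon in PDGFRαhi, CD81+, Fgfr2-high and Fgfr2-low FB and SMC, and 0.746%, 0.298%, 0.781%, 0.781% and 0.584% higher, which makes 1.45%, 0.842%, 1.31%, 1.93% and 1.82% in either direction. In CD81+ FB 1 of 14 passed and in Fgfr2-low FB 2 of 14, all lower in colon. None passed in PDGFRαhi FB (0 of 17, 4 at an unadjusted p under 0.05), Fgfr2-high FB (0 of 15, 5 unadjusted) or SMC (0 of 6, 1 unadjusted) with edgeR, where DESeq2 passed 2, 3 and 1. The median log2 fold change of the rows tested was -0.41, -0.80, 0.43, 0.08 and 0.50 in PDGFRαhi, CD81+, Fgfr2-high and Fgfr2-low FB and SMC.

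*C2*, the substrate of C1s that pairs with C4b, fell in colonic CD81+ FB. It gave 135 and 425 UMIs (53.0 and 50.9 CPM) in small intestine and 9 and 59 UMIs (6.07 and 6.36 CPM) in colon, a log2 fold change of -3.17, SE 0.29 with adjusted p = 0.021 (edgeR quasi-likelihood test, Benjamini-Hochberg). This call held when any 1 library was left out. In Fgfr2-low FB it also fell, from 31.3 and 27.6 CPM to 3.23 and 5.44 CPM (-2.77, SE 0.35, adjusted p = 0.043, edgeR), and the values in PDGFRαhi FB (-2.83, SE 0.44) and Fgfr2-high FB (-2.19, SE 0.34) did not pass (adjusted p = 0.0658 and 0.0587, edgeR). In Fgfr2-low FB the call of *C2* was lost without either small intestinal library.

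Apart from *C2*, the genes of the list that are named here did not pass in the main edgeR fits. The gene that passed beside *C2* in Fgfr2-low FB is not reported here. *Colec12*, a collectin, stood at 365 and 415 CPM in small intestinal and 146 and 141 CPM in colonic CD81+ FB (-1.56, SE 0.27, adjusted p = 0.0808, edgeR). *Clu*, a fluid-phase inhibitor of the terminal complex, had 6 and 11 UMIs in small intestinal and 308 and 273 in colonic PDGFRαhi FB (3.29, SE 0.53, adjusted p = 0.0681, edgeR). *Cpn1*, a subunit of carboxypeptidase N, had 0 and 2, and 33 and 50, UMIs in small intestinal and colonic Fgfr2-high FB (4.70, SE 0.71, adjusted p = 0.0553, edgeR). *Colec12*, *Clu* and *Cpn1* were called in these classes with DESeq2, with no filter on low counts and with a replicate block, so their outcome depended on the fit. The C5a receptor *C5ar1* was found mainly in PDGFRαhi FB, at 74.6 and 29.4 CPM and 52.2 and 26.7 CPM (-0.26, SE 0.54). The surface regulator *Cd59a*, which blocks the last step of pore formation, was highest in SMC, at 171 and 75.0 CPM and 254 and 137 CPM (0.70, SE 0.48). *Vtn* was highest in pericytes, at 519.6 and 655 CPM and 547 and 267 CPM. *Cr1l*, a membrane regulator, and *C1rl*, a relative of C1r, had fitted values of -0.34, SE 0.23 and 0.30, SE 0.33 in PDGFRαhi FB.

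Most other genes of the terminal pathway were barely found. Over all 6 classes and 4 libraries *Hc*, which encodes C5, gave 0 UMIs, *C8a* 0, *C8b* 0, *C8g* 69 and *C9* 1. Of the 50 rows outside the 9 genes, 12 had no UMI at all. Related copies were almost empty beside their partners, with 31 UMIs of *C1rb*, 27 of *C1s2* and 10 of *Cd55b*. The longest coding transcripts of *C1ra*, *C1s1* and *Cd55* shared 68.6%, 47.1% and 22.7% of their bases with these copies in stretches of at least 50. Of their last 500 bases, 27%, 35.8% and 0% lay in such stretches. Reads that lie wholly within these stretches cannot be assigned.

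**Figure D5:**
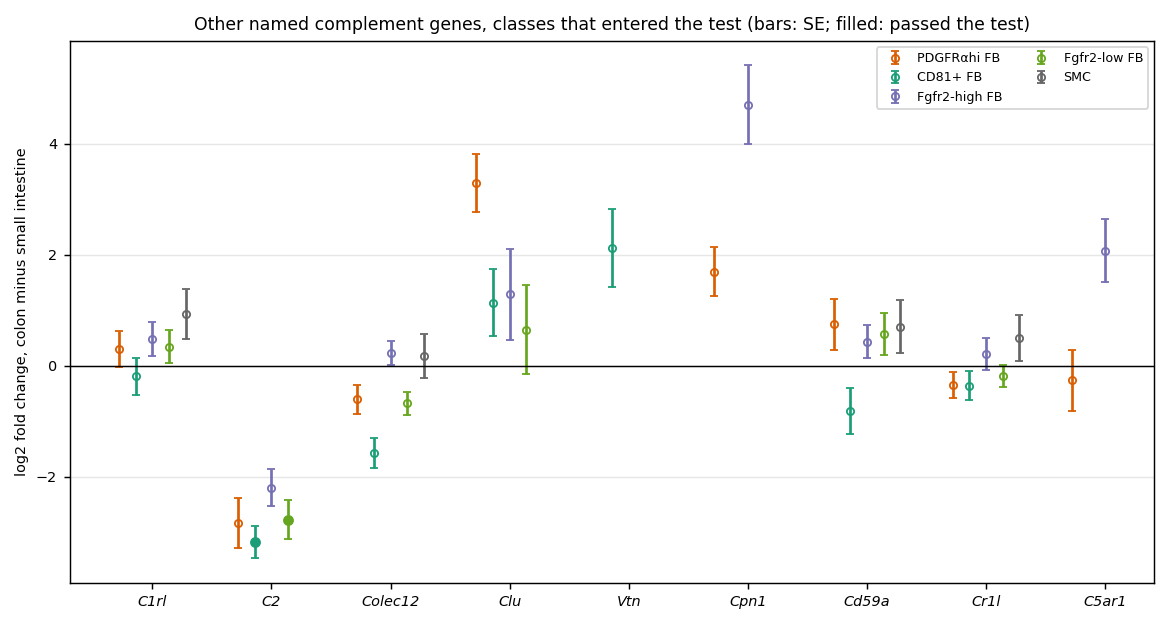
Fitted log2 fold change, colon minus small intestine, of named complement genes outside the 9, with SE, in each class that entered the test. Filled points passed the test: *C2* in Fgfr2-low FB and CD81+ FB, both below 0.

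Over 24 profiles (6 classes in 4 libraries), the genes most like *C7* among 5854 genes of at least 50 CPM in any profile were *Smoc2* (Pearson r 0.90), *Kcnn3* (Pearson r 0.88), *AU020206* (Pearson r 0.79), *Smtnl2* (Pearson r 0.79), *Tmem238* (Pearson r 0.77), computed on log2(CPM + 10). Among the 5 most like *C4b* were *Sulf2* (0.94), *Apoe* (0.93), *Adamts10* (0.92), *Lepr* (0.92). The profiles of a library share its depth and free RNA, so these correlations describe the data and carry no p-value. No gene was common to both lists.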

How the data were processed

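The authors deposited raw UMI counts per gene and barcode, made with Cell Ranger (3.0.2 in the file headers of the replicate 1 libraries, 3.1.0 in those of replicate 2) on mm10. The 9 genes, the complement and marker lists and the rule for named genes were chosen with earlier results of these data known. Barcodes under 500 genes or 1000 UMIs, or above 10% mitochondrial UMIs, were dropped, and doublets called by scrublet were removed. For small intestine replicate 2 the automatic threshold called 1 doublet, so that of colon replicate 2 was used, which called 796. Each intestine was integrated and clustered with Seurat 5.3.0 (30 components, resolution 0.5) without complement genes. Clusters were named from fixed markers by a scoring rule set after the clusters were seen, and clusters named as plasma, endothelial, glial and interstitial cells were removed. A small intestinal cluster of 57 cells removed as plasma cells had the FB gene *Dcn* at 15822 CPM. UMIs were summed per class and library and fitted with edgeR 4.0.16 (quasi-likelihood test, TMM, Benjamini-Hochberg over all genes of a class), which was tested on simulated counts. Complement genes outside the 9 were named if they passed in any class or had at least 50 UMIs in both libraries of an intestine in 1 class, and copies of the 9 wherever found. For 2 genes that met the rules for naming, values are not reported here. DESeq2 1.42.0, other scaling, filters, classings, a replicate block and left-out libraries were the alternatives. Intervals cover counting error only.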

Additional observations from a re-analysis of the deposited data

Results flagged for a closer look

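*Cd55* was set apart because its difference between the intestines ran in opposite directions in different classes, with both colonic libraries on 1 side of both small intestinal ones in each. The log2 fold change (colon minus small intestine) was 1.49 in CD81+ FB, 0.65 in Fgfr2-low FB, -0.42 in Fgfr2-high FB and -3.28 in SMC. The difference between the classes was not tested.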

How the results depend on the processing

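Counts are given in the order PDGFRαhi, CD81+, Fgfr2-high and Fgfr2-low FB and SMC. Over all genes, 167, 96, 156, 232 and 172 genes were called with edgeR, 566, 218, 390, 506 and 280 with DESeq2 and 565, 440, 523, 476 and 608 with no filter on low counts. Left-out libraries gave 0 to 531, 62 to 199, 0 to 475, 0 to 207 and 61 to 532, with 0 in PDGFRαhi, Fgfr2-high and Fgfr2-low FB without either small intestinal library. A per-cell marker gate gave 49, 57 and 75 in CD81+, Fgfr2-high and Fgfr2-low FB. In Fgfr2-low FB joint clustering gave 92 and resolution 0.8 gave 370, and keeping doublets gave 108 in SMC. At resolution 0.8, Fgfr2-low FB took in a colonic cluster of 1165 cells with *Pdgfra* at 707 CPM and *Fgfr2* at 9.71 CPM. Of complement genes outside the 9, 0, 1, 0, 2 and 0 were called with edgeR, 2, 2, 3, 2 and 1 with DESeq2, 2, 3, 3, 2 and 2 with no filter and 0 to 2, 1 to 2, 0 to 4, 0 to 1 and 0 to 1 with left-out libraries. In Fgfr2-low FB this count was 1 with joint clustering, 0 with the per-cell gate, 0 with at least 1000 genes per barcode and 1 with doublets kept, which gave 1 in PDGFRαhi FB. The cause was not tested. Of 532 alternative log2 fold changes of the 9 genes, 498 moved by less than the spread between replicates, and the sign changed in 7. With 2 libraries per intestine and shallow replicate 2 libraries, genes of few UMIs could not be compared.

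A replicate block in the edgeR fit, which pairs libraries by number, changed the counts of calls: 954, 494, 812, 776 and 612 genes and 6, 4, 5, 2 and 1 complement genes outside the 9 were then called. Libraries of the same number deviated together (r = 0.60 to 0.73 across genes), and they share a Cell Ranger version and a like depth, but there are only 2 pairs and no label says that a number marks shared mice or a shared day, so the pairing was not used in the fits of the report.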
